A study of Mus musculus with 6 samples.

Results

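The nuclear-encoded subunits of the mitochondrial respiratory chain and ATP synthase were followed in differentiating DM1 myoblasts with and without miR-322/-503 overexpression. Members were the genes whose names begin with the Nduf letters of the structural subunits (a, b, c, s or v), Uqcr, Cox4 to Cox8 or Atp5, together with Sdha, Sdhb, Sdhc, Sdhd and Cyc1. Assembly factors beginning with Ndufaf and names of pseudogenes with "-ps" were left out. This gave 91 of the 55421 genes in the count table, 41 in complex I, 4 in complex II, 9 in complex III, 19 in complex IV and 18 in complex V. Of these, 85 had enough counts to be tested.

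RNA-seq covered 3 control libraries (CUG200-ctrl, DM1 myoblasts with the empty vector) and 3 miR-322/-503 libraries (CUG200-m, DM1 myoblasts overexpressing the miRNAs), all on day 4 of differentiation. All 6 were derived from C2C12 (mouse myoblasts that form myotubes when serum is lowered), and all carried GFP with expanded CUG repeats, the toxic RNA of myotonic dystrophy type 1. Each group is a single stably transfected line, so what the miRNAs did and what set the lines apart for other reasons cannot be told apart. The study's methods speak in general of biological as well as technical replicates, but the labels do not say whether the 3 libraries of a group were separate cultures, and p-values measure the spread between these libraries. The RNA is bulk RNA, in which fewer cells of a type and less RNA per cell cannot be told apart.

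The respiratory chain passes electrons from NADH (complex I) and succinate (complex II) through ubiquinone to complex III, through cytochrome c to complex IV, and so to oxygen. Complexes I, III and IV pump protons, and complex V, the ATP synthase, lets them flow back to make ATP. Most subunits are made from nuclear genes and imported, whereas a few core subunits of complexes I, III, IV and V are made from mitochondrial DNA. In skeletal muscle, which depends on this chain, some complex IV subunits have isoforms largely restricted to heart and muscle.

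The overexpressed miRNAs share most of their seed, bases 2 to 8, shown in capitals in these mature sequences from RefSeq on GRCm38.p6 (miR-322-5p at chrX:53054306-53054327 and miR-503-5p at chrX:53054027-53054049, both on the minus strand).
miR-322-5p: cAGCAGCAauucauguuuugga
miR-503-5p: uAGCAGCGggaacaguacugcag
The mature miRNAs were not measured by these libraries. For the precursor gene Mir322 the estimated counts were 1, 7 and 2 without and 17, 0 and 3 with overexpression. For Mir503 they were 1, 1 and 2 without and 6, 4 and 5 with it. All but 1 of these lay under the 12 counts that stand for 3 read pairs, so the overexpression was not detectable at this depth.

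The libraries held 73532084 to 92157388 estimated counts, which correspond to 18383021 to 23039347 read pairs. The members took 0.685% to 0.790% of the counts. Per transcript, the tested members with at least 10 TPM (the transcript level scaled for gene length and library) ran from 14.1 TPM for Ndufb2 to 1177 TPM for Atp5b, as means of the 6 libraries. The median was 98.5 TPM in complex I, 128 in complex II, 137 in complex III, 252 in complex IV and 237 in complex V.

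Most respiratory chain genes had nearly the same level in both lines. With edgeR's quasi-likelihood test and Benjamini-Hochberg adjustment over all 18140 tested genes, 4 of the 85 members rose (Cox8b, Uqcrfs1, Atp5md and Ndufb5) and 2 fell (Ndufb7 and Atp5l). These 6 members are 7.06% of those tested, where 28.8% of all tested genes passed the same threshold, 13.2% as higher and 15.5% as lower. Among the 6924 tested genes with a mean CPM (counts scaled by library total and TMM factor) in the range of the middle 80% of the members, 35.3% passed it. When a log2 fold change beyond 1 was also required, Cox8b alone remained, whereas 9.87% of all tested genes did. With library totals as the only scaling, 9 members were higher and 2 lower. With the replicate number as a block, 10 were higher and 5 lower, and Ndufb5 was lost. Over all tested genes, however, the numbers did not pair the libraries. Without control replicate 1 or 3 the number that rose was 2. Without control replicate 3 or miR-322/-503 replicate 2 the number that fell was 5 or 4. Cox8b, Ndufb7 and Atp5l passed in each of the 6 fits that left out a library, and Uqcrfs1, Atp5md and Ndufb5 did not.

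The estimates were also precise enough to bound most changes. The 95% interval of the fold change lay within 1.5-fold in either direction for 70 of the 85 members (82.4%), against 41.3% of all tested genes and 71.3% of the genes of like CPM. It lay within 2-fold for 80 members. The other 5 were Cox8b, Cox8a and 3 genes with wide intervals, namely Ndufa4l2, Ndufs6b and Cox6c2. The members' median log2 fold change was 0.05, with quartiles of -0.09 and 0.17, and the median of all tested genes was -0.01, with quartiles of -0.30 and 0.28. The CPM of the groups did not overlap for 24 of the 85 members (28.2%), and 45.1% of all tested genes had groups that did not overlap.

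**Figure D1:**
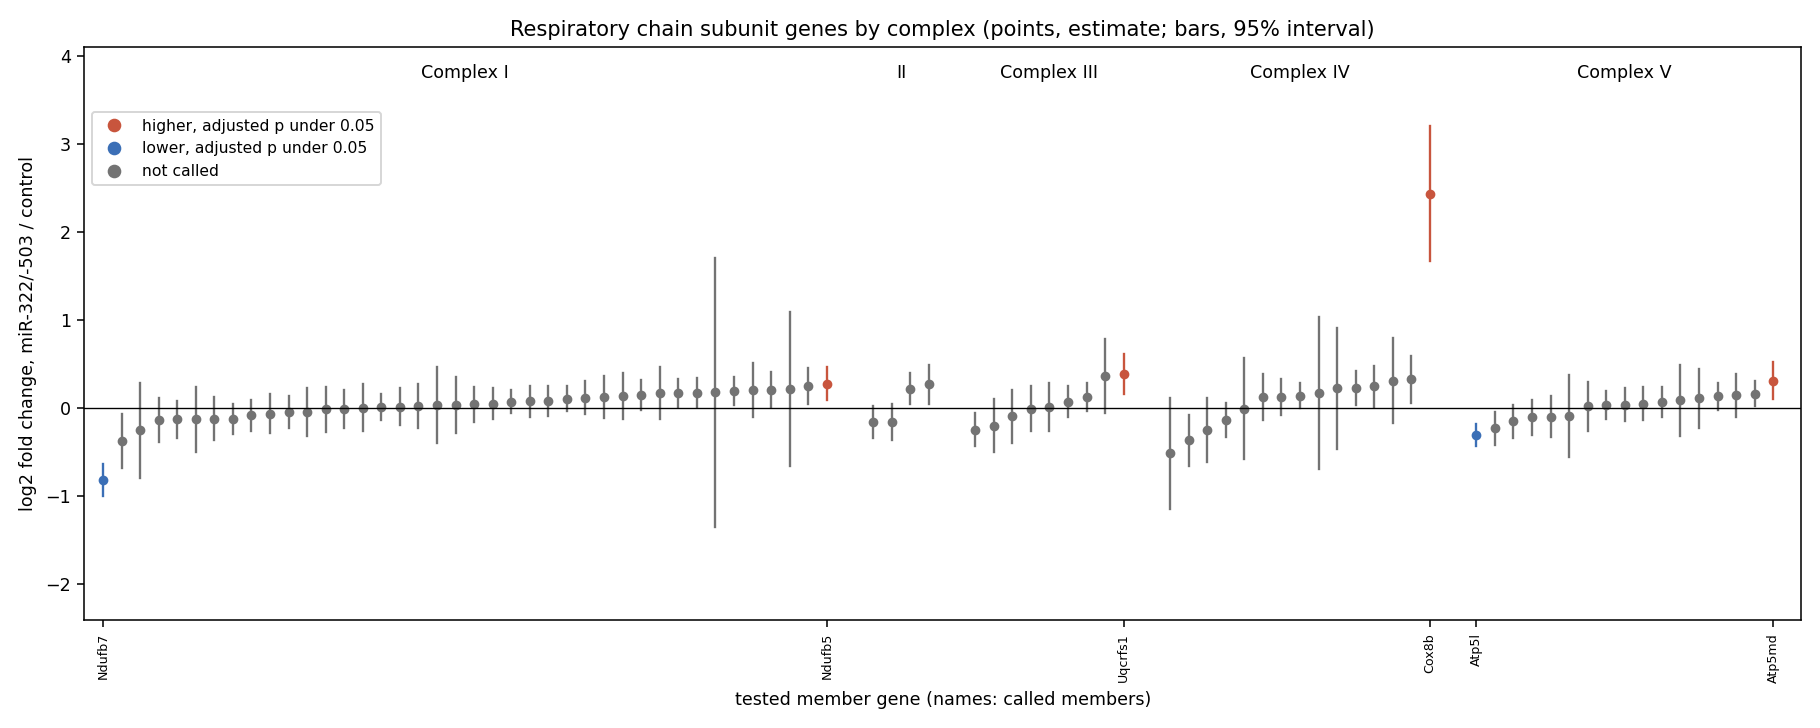
Log2 fold change (miR-322/-503 over control) of the 85 tested members on the y axis, with genes on the x axis ordered within each complex and the 6 called members named; points are edgeR estimates and bars 95% intervals, colored by the call at an adjusted p under 0.05. Nearly all points sit close to 0, and Cox8b stands at 2.44 while Ndufb7 stands at -0.81.

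Complex I, the NADH dehydrogenase, had 40 tested members, of which Ndufb5 rose and Ndufb7 fell. Its median log2 fold change was 0.04, and 26 of the 40 estimates were above 0. Ndufb7 (chr8:83566671-83571626, GRCm38) encodes an accessory subunit of the membrane arm. It had 113, 118 and 100 CPM in the control libraries and 61.1, 66.5 and 61.1 CPM in the miR-322/-503 libraries. Every miR-322/-503 library thus lay far below every control library, and the level fell by 0.81 ± 0.08 (SE) on the log2 scale (edgeR adjusted p = 0.000238). The control level was 1.76 times as high as that with the miRNAs, with a mean of 111 ± 9.55 CPM against 62.9 ± 3.11 CPM (SD, n = 3 each).

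Ndufb5 (chr3:32736990-32751566), a further accessory subunit of the membrane arm, had 35.1, 34.1 and 39.5 CPM in the control and 45.7, 45.0 and 41.4 CPM with the miRNAs. The groups did not overlap but came close to each other, and the log2 fold change was 0.28 ± 0.08 (SE; edgeR adjusted p = 0.0376). On the scale of TPM the groups did overlap, since the control libraries had 62.1, 58.9 and 70.7 TPM and the miR-322/-503 libraries 83.1, 81.6 and 60.9 TPM. The call was lost without control replicate 1 or 2 or without miR-322/-503 replicate 1 or 2, with edgeR adjusted p-values of 0.115, 0.114, 0.110 and 0.105. It was also lost without a filter (0.0606) and with limma on log2 TPM (adjusted p = 0.275 and 0.278 with pseudocounts of 1 and 0.1). Exons of Ndufb5 overlap those of Mrpl47 on the opposite strand, which had a mean of 12.8 TPM against 69.6 TPM for Ndufb5, and whether counting used strand is not given in the sources used here.

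Among the other complex I members, the estimates ran from -0.37 to 0.25. The lowest was Ndufa1, a small membrane arm subunit encoded on the X chromosome, with 30.0, 39.2 and 35.1 CPM against 23.0, 29.0 and 28.8 CPM. Its groups did not overlap, and its log2 fold change of -0.37 ± 0.13 (SE) did not pass the threshold (edgeR adjusted p = 0.0749). Ndufa1 did pass in DESeq2, with the replicate number as a block and without control replicate 1. Ndufa4 was first assigned to complex I and is now counted with complex IV. It had 95.4, 85.7 and 69.4 CPM in the control and 87.8, 78.5 and 77.7 CPM with the miRNAs, and the groups overlapped. Its relative Ndufa4l2, a hypoxia-induced gene, had under 0.5 CPM in every library and an interval of the log2 fold change from -1.35 to 1.71, so that a difference was not detectable at this depth.

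Complex II, the succinate dehydrogenase, is the only complex encoded by nuclear genes alone, and none of its 4 subunits passed the threshold with TMM scaling and the default filter. At an unadjusted p under 0.05 there were 2 of the 4, Sdha and Sdhc, where 39.6% of all tested genes and 47.7% of the genes of like CPM were under it. The count therefore does not set complex II apart. The flavoprotein gene Sdha had 212, 187 and 202 CPM in the control and 249, 219 and 233 CPM with the miRNAs. The membrane anchor gene Sdhc had 52.7, 66.6 and 54.9 CPM against 72.2, 71.4 and 67.1 CPM. Neither pair of groups overlapped. The log2 fold changes were 0.22 ± 0.08 and 0.27 ± 0.09 (SE), with edgeR adjusted p-values of 0.0628 and 0.0672, and DESeq2 gave 0.0357 and 0.0386. Other edgeR settings also took them past the threshold, Sdha with upper-quartile factors (0.0478), with at least 10 counts in every library (0.0495) and with library totals (0.0426), and Sdhc with library totals (0.0489) and per read pair (0.0474). With the replicate number as a block both passed (edgeR adjusted p = 0.0146 and 0.0470). The iron-sulfur gene Sdhb had 69.8, 74.8 and 62.1 CPM against 63.1, 60.7 and 61.8 CPM. The second anchor gene Sdhd had 133, 126 and 110 CPM against 119, 104 and 110 CPM. Both of these overlapped between the groups, with estimates of -0.16 and -0.15. All 4 intervals lay within 1.5-fold. Single libraries decided 2 of these results, since Sdhc passed without control replicate 2 (edgeR adjusted p = 0.00960) and Sdhb without control replicate 3 (0.0400).

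In complex III, the cytochrome bc1 complex, 1 of 9 members rose. Uqcrfs1 (chr13:30540308-30545362) encodes the Rieske iron-sulfur protein, which takes electrons from ubiquinol. It had 44.4, 39.2 and 37.5 CPM in the control and 58.5, 51.2 and 48.6 CPM with the miRNAs, with no overlap. The log2 fold change was 0.39 ± 0.10 (SE; edgeR adjusted p = 0.0213), a rise of 1.31-fold. Without control replicate 2 or 3 or miR-322/-503 replicate 1 the adjusted p was 0.0722, 0.0645 or 0.0546, and limma on log2 TPM gave 0.0584 and 0.0598 with pseudocounts of 1 and 0.1. The other redox subunit encoded in the nucleus, cytochrome c1 (Cyc1), had 95.2, 81.7 and 79.5 CPM against 97.1, 83.2 and 75.3 CPM. Its groups overlapped almost fully, with an interval of the log2 fold change from -0.26 to 0.25. The core protein gene Uqcrc1 stood lowest, at 60.8, 61.2 and 54.9 CPM against 52.6, 51.8 and 45.2 CPM, and its log2 fold change of -0.24 ± 0.08 (SE) missed the threshold (edgeR adjusted p = 0.0607). Uqcrc1 did pass per read pair, with the replicate number as a block and without control replicate 3.

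Complex IV, the cytochrome c oxidase, held the single large change. Cox8b (chr7:140898945-140900446), the heart and muscle isoform of subunit VIII, had 0.388, 0.678 and 0.343 CPM in the control and 2.02, 2.55 and 3.10 CPM with the miRNAs. Every miR-322/-503 library was far above every control library, and the log2 fold change was 2.44 ± 0.33 (SE; edgeR adjusted p = 0.00129), a rise of 5.42-fold with a 95% interval of 3.19 to 9.21-fold. The gene remained a low one. Its control libraries held 30, 56 and 29 estimated counts, about 4 of which stand for 1 read pair, and its miR-322/-503 libraries held 193, 191 and 233.

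The ubiquitous partner Cox8a was the lowest complex IV estimate. It had 135, 121 and 97.1 CPM in the control and 69.5, 121 and 56.9 CPM with the miRNAs. The second miR-322/-503 library lay inside the control range and the others below it, so that the log2 fold change of -0.51 ± 0.27 (SE) did not pass the threshold (edgeR adjusted p = 0.210). Without miR-322/-503 replicate 2 it was -0.90, with an adjusted p of 0.0100.

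Neither of the other muscle isoforms passed the threshold. Cox6a2, the muscle form of subunit VIa, had 13.4, 14.0 and 11.6 CPM against 15.2, 14.9 and 16.3 CPM, with groups that did not overlap. Its log2 fold change was 0.25 ± 0.10 (SE; edgeR adjusted p = 0.105). Cox7a1, the muscle form of subunit VIIa, had 1.27, 1.40 and 1.36 CPM against 1.48, 1.55 and 1.99 CPM, again with no overlap. Its log2 fold change was 0.31 ± 0.21 (SE; edgeR adjusted p = 0.309). Of their ubiquitous partners, Cox6a1 had 160, 160 and 147 CPM against 166, 177 and 173 CPM. Cox7a2 had 56.7, 68.6 and 58.9 CPM against 42.1, 56.0 and 45.1 CPM. Neither passed the threshold (edgeR adjusted p = 0.122 and 0.0621), although neither overlapped between the groups. Without miR-322/-503 replicate 2, Cox7a2 passed it at -0.49 (edgeR adjusted p = 0.0172). With all 6 libraries it passed in DESeq2 (adjusted p = 0.0257) and with the replicate number as a block (edgeR adjusted p = 0.00592).

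Measured as shares of TPM, which makes genes of different length comparable, the muscle isoforms stayed the minor form in every library. Cox8b made up 0.431%, 0.844% and 0.524% of Cox8a plus Cox8b in the control and 4.24%, 3.10% and 7.67% with the miRNAs. Cox7a1 made up 3.50%, 3.19% and 3.59% of Cox7a1 plus Cox7a2 in the control and 5.50%, 4.21% and 6.76% with the miRNAs. Neither share overlapped between the groups, and both had a two-sided exact permutation p of 0.1, the smallest that 3 libraries against 3 allow. Over the 8 shares computed the adjusted value was 0.4. The Cox7a1 share holds Cox7a2, whose estimate was below 0, in its denominator. The Cox8b share likewise holds Cox8a, which had 470, 416 and 334 TPM in the control and 243, 423 and 185 TPM with the miRNAs. The highest Cox8b share, 7.67%, came from the library with the least Cox8a. Cox8b itself had 2.03, 3.54 and 1.76 TPM against 10.8, 13.5 and 15.4 TPM, without overlap. The Cox6a2 share was 6.58%, 6.88% and 6.24% against 7.15%, 6.65% and 7.35%, with overlapping groups (exact permutation p = 0.2). Muscle isoforms thus accounted for at most 7.67% of any of these pairs.

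**Figure D2:**
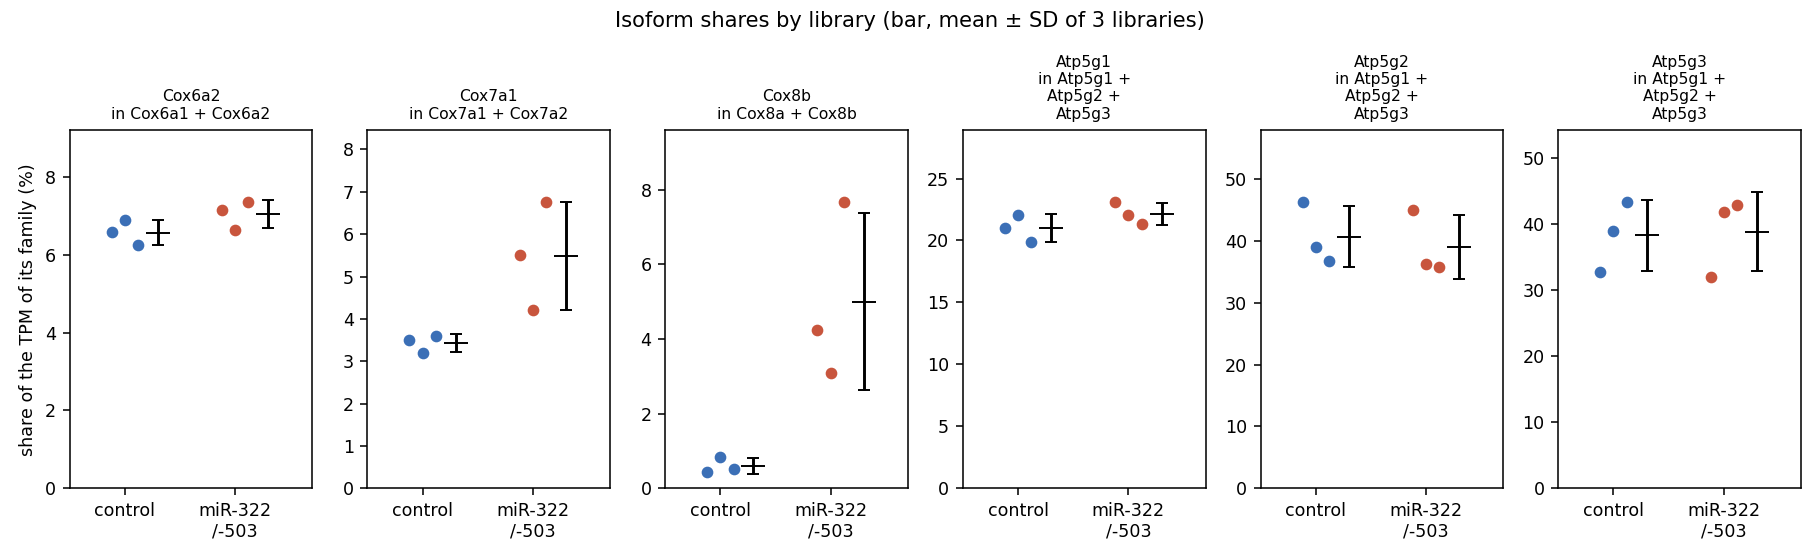
Share of the TPM of an isoform family (y axis, percent) taken by 1 isoform in each library, for the muscle forms Cox6a2, Cox7a1 and Cox8b and for the 3 genes of the ATP synthase c subunit; points are libraries and bars mean ± SD of 3. The groups separate for Cox7a1 and Cox8b and overlap in the other panels.

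The hypoxia-linked form Cox4i2 was not tested, with at most 6 estimated counts in a library, so nearly all transcripts of subunit IV came from Cox4i1. Cox4i1 had 183, 121 and 101 CPM in the control and 174, 112 and 118 CPM with the miRNAs. The spread within each group was large and the groups overlapped, giving an interval of the log2 fold change from -0.58 to 0.57. Cox7a2l, a factor that joins complexes III and IV into supercomplexes, had 43.4, 79.0 and 44.5 CPM against 43.1, 77.5 and 75.2 CPM and also overlapped. Its coding sequence is nearly identical to that of Gm6969, which had a mean of 632 TPM against 107 TPM for Cox7a2l, so the split of reads between them is uncertain. With the counts of both added, the log2 fold change was 0.15 ± 0.15 (SE).

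Complex V had 17 tested members, of which Atp5md rose and Atp5l fell, and all 17 intervals lay within 1.5-fold. Atp5l (chr9:44912557-44920742), subunit g of the membrane part, had 137, 146 and 137 CPM in the control and 114, 113 and 113 CPM with the miRNAs. The groups were well separated, and the level fell by 0.31 ± 0.05 (SE) on the log2 scale (edgeR adjusted p = 0.00450). The 9 copies of its coding sequence in the genome had together a mean of 161 TPM against 424 TPM for Atp5l, and with their counts added the estimate was again -0.31 (edgeR adjusted p = 0.00486).

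Atp5md (chr19:47083464-47090647), a small subunit of the membrane part, had 54.3, 55.9 and 57.4 CPM against 61.2, 69.7 and 77.9 CPM. The groups did not overlap, and the log2 fold change was 0.32 ± 0.09 (SE; edgeR adjusted p = 0.0357). The call was lost without a filter (edgeR adjusted p = 0.0552) and held in 1 of the 6 fits that left out a library, the one without miR-322/-503 replicate 1. Without control replicate 1, 2 or 3 the adjusted p was 0.114, 0.0951 or 0.0666, and without miR-322/-503 replicate 2 or 3 it was 0.0895 or 0.0944.

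The catalytic β subunit Atp5b was the most abundant member. It had 1262, 1159 and 1089 TPM in the control and 1284, 1165 and 1104 TPM with the miRNAs, with an interval of the log2 fold change from -0.12 to 0.20. The c subunit, whose ring turns with the proton flow, is made from Atp5g1, Atp5g2 and Atp5g3, which encode the same mature protein. Their log2 fold changes of 0.05, 0.02 and 0.11 were all far from the threshold. Atp5g1 held 21% ± 1.09 of the family's TPM in the control and 22.2% ± 0.887 with the miRNAs (SD, n = 3 each). Atp5g2 held 40.7% ± 4.99 and 39.0% ± 5.15, and Atp5g3 held 38.3% ± 5.35 and 38.8% ± 5.98. The larger part of the spread lay within the groups, since replicate 1 of each group had most Atp5g2 and least Atp5g3.

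**Figure D3:**
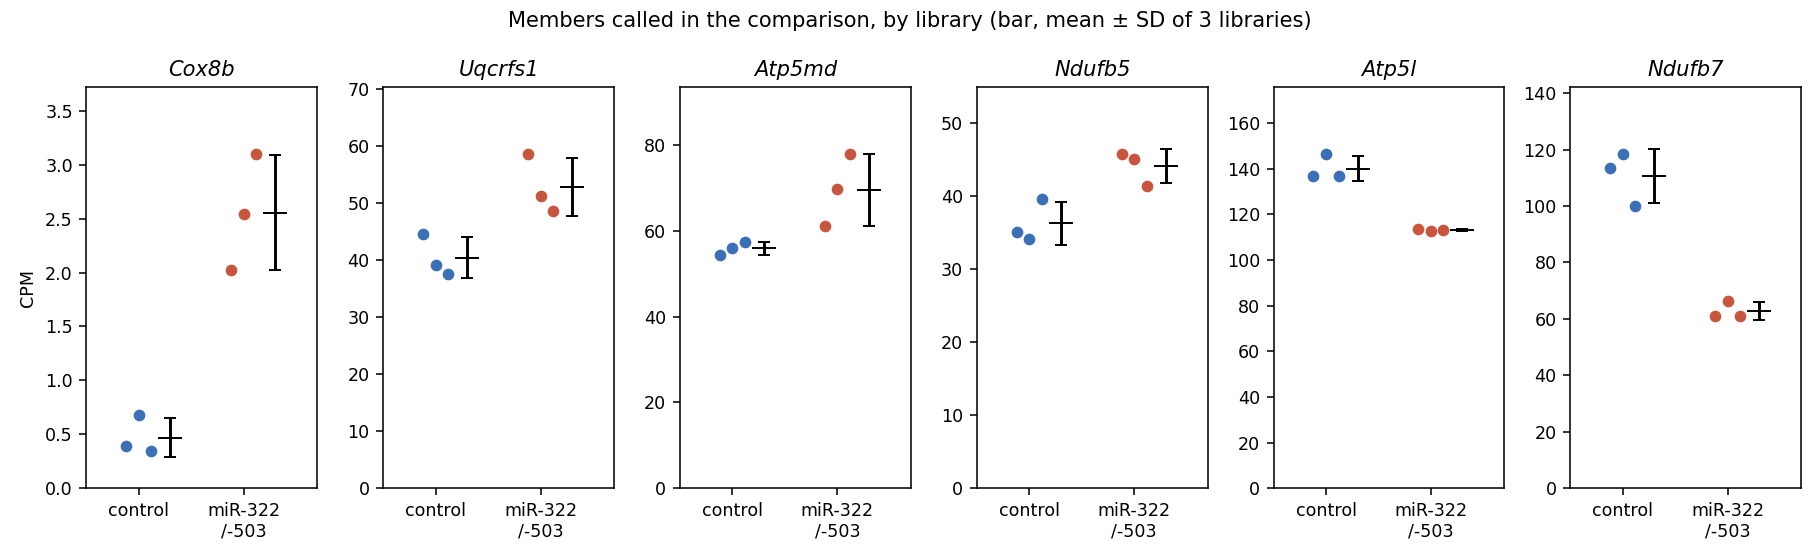
CPM (y axis) of the 6 members that passed the threshold, in each library; points are libraries and bars mean ± SD of 3, with axes starting at 0. Cox8b and Ndufb7 are far apart between the groups, and the other 4 are separate but close.

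Summed over each complex as TPM over all genes, the members' transcripts made up a like share of the RNA in both lines. Complex I members summed to 4557, 4809 and 4308 TPM in the control and 4359, 4657 and 4316 TPM with the miRNAs. Complex V members, the most abundant, summed to 5682, 5666 and 5166 TPM against 5786, 5581 and 5222 TPM. The ratio of the group means lay between 0.975 (complex I) and 1.01 (complex IV) for the 5 complexes, and the groups overlapped in each. The 13 subunits encoded by mitochondrial DNA were summed in the same way. They reached 107401, 102300 and 134652 TPM in the control and 146862, 140537 and 182392 TPM with the miRNAs, and the groups did not overlap, with a ratio of means of 1.36. Since TPM values share a fixed total, the sums were also taken without the mitochondrially encoded genes. All 91 members then summed to 18080, 18257 and 17132 TPM in the control and 18704, 18788 and 18440 TPM with the miRNAs, without overlap and with a ratio of 1.05. By complex the ratios then lay between 1.03 (complex I) and 1.07 (complex IV). Complex V summed to 6385, 6330 and 5996 TPM against 6811, 6523 and 6426 TPM, without overlap, and complexes I to IV overlapped. These sums were not tested.

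**Figure D4:**
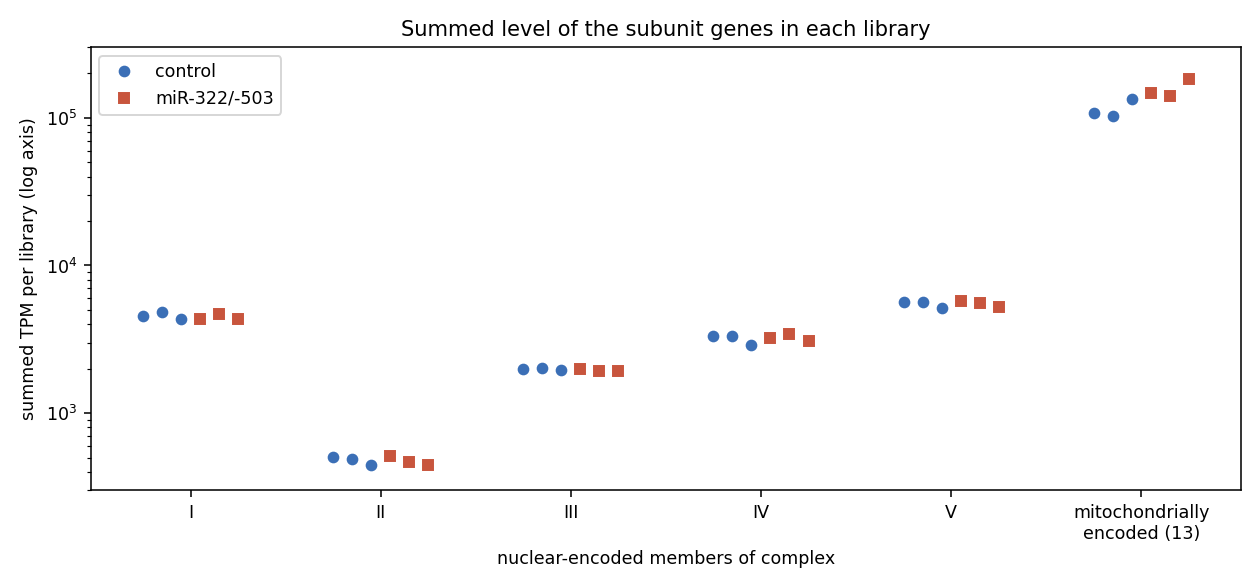
Summed TPM per library (log y axis) of the nuclear-encoded members of each complex and of the 13 mitochondrially encoded subunits (x axis); circles are control and squares miR-322/-503 libraries. The groups overlap for complexes I to V and are separate for the mitochondrially encoded subunits.

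Single mitochondrially encoded subunits were above 0 in 13 of 13 estimates, with a median log2 fold change of 0.38, and 5 passed the threshold, a share of 38.5% where 28.8% of all tested genes passed. The largest were mt-Atp8, of complex V, at 0.93 ± 0.23, and mt-Co2, which takes electrons from cytochrome c in complex IV, at 0.57 ± 0.16 (SE; edgeR adjusted p = 0.0196 and 0.0343). Neither call was stable when a library was left out. That of mt-Atp8 held without control replicate 3 or miR-322/-503 replicate 2 and was lost in the other 4 fits, with edgeR adjusted p-values of up to 0.0694. That of mt-Co2 held only without miR-322/-503 replicate 2, with adjusted p-values of up to 0.112 in the others. The count of 5 moved with single libraries too. It was 1 without control replicate 1, 2 without miR-322/-503 replicate 3, and 3 without control replicate 2 or miR-322/-503 replicate 1. It was 6 without control replicate 3, 8 in DESeq2, 3 in limma and 12 with the replicate number as a block. All transcripts of the mitochondrial genome took 5.21% to 7.14% of the counts in the control and 7.39% to 9.72% with the miRNAs, and the part of this share in the difference was not tested.

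The estimates of the members resembled only in part those of the genes beside them on the chromosome. For each member, the 25 nearest tested genes on either side that are not members were taken, and their median log2 fold change was compared with that of the member. Ndufb7 had neighbors with a median of -0.74 and quartiles of -1.01 and -0.40. These 50 genes span 5.16 Mb of chromosome 8 (chr8:79028437-84185217), and 42 of them were below 0, 29 passed the threshold as lower and 2 as higher. Ndufb7 itself was 0.08 below this median. Atp5l lies among genes with a median of -0.28, of which 45 of 50 were below 0 and 17 passed as lower, and it differed from that median by -0.02. For Atp5md the neighbors' median was 0.27, for Uqcrfs1 0.23 and for Ndufb5 0.13, leaving differences of 0.05, 0.15 and 0.15. The neighbors of Uqcrfs1 spread widely, with quartiles of -0.19 and 0.95. Cox8b was the exception among the called members, at 2.30 above its neighbors' median of 0.14. Its neighbors had quartiles of -0.20 and 0.90, and 12 of them passed as higher.

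The members were also grouped by chromosome. All 5 members on chromosome 9 (Atp5l, Cox5a, Cox7a2, Sdhd and Uqcrc1) were below 0, from -0.36 to -0.15, and the median of the 1009 other tested genes there was -0.27. All 4 on chromosome 4 (Ndufb6, Ndufs5, Sdhb and Uqcrh) were below 0, where the median of the others was -0.19. On chromosome 13, 5 of 6 members were above 0, among them Uqcrfs1, Uqcrb, Cox7c and Sdha, and the others had a median of 0.15. Other chromosomes had members on 1 side of 0 without such a median. All 3 on chromosome 3 were above 0, with a median of 0.25 where the other genes had -0.00. All 6 on chromosome 1 were above 0, at 0.15 against 0.03, and all 3 on the X chromosome were below 0, at -0.13 against -0.01. Across the 85 members, the log2 fold change and the neighbors' median had a Pearson r of 0.44 and a Spearman rho of 0.49, and r was 0.45 over the 83 without Cox8b and Ndufb7. These are descriptions, since all points share the same 6 libraries and members close to each other share neighbors. The SD of the 83 estimates was 0.179, and 0.165 after subtraction of the neighbors' median. With the median of the whole chromosome instead, r was 0.52 and the remaining SD 0.154 over the same 83. Member and neighbors' median had the same sign in 56 of the 85.

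**Figure D5:**
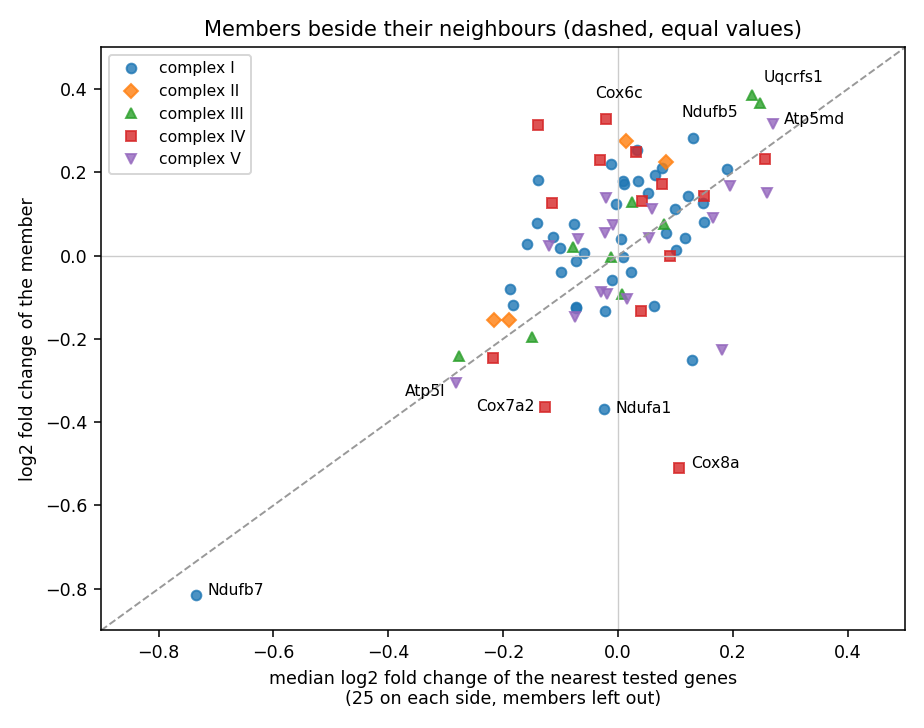
Log2 fold change of each tested member (y axis) against the median of its nearest tested genes that are not members (x axis), with symbols by complex; Cox8b, at 2.44 and 0.14, lies outside the plotted range. Ndufb7 and Atp5l sit close to the dashed line of equal values, and Cox8a lies far below it.

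Seed matches for the miRNAs were few among the members. Of the 80 members with an annotated 3'UTR of at least 50 bases, 4 (5.0%) held a match to bases 2 to 8 of either seed, where 30.0% of the 13487 tested genes with such a 3'UTR did. The members' 3'UTRs were short, with a median of 291.5 bases against 1343. None of the 6 called members held a match. The sites are printed with the seed match in capitals. In no case had the member's level passed the threshold with TMM scaling and the default filter, although Sdhc passed in some other settings.
Atp5g1, base 28 of the 3'UTR (miR-322-5p): cagccgtcccTGCTGCTttgactccat
Ndufb4, base 405 (miR-322-5p): gaacgtgagcTGCTGCTgaggcgctag
Ndufb11, base 38 (miR-503-5p): attactcatcCGCTGCTtgttatttac
Sdhc, base 252 (miR-503-5p): gtcagctttcCGCTGCTttctgctgag
Atp5g1 had further matches at bases 1621 and 3266 of its long 3'UTR. The log2 fold changes were 0.05 for Atp5g1, 0.18 for Ndufb4, -0.12 for Ndufb11 and 0.27 for Sdhc, so that 3 of the 4 estimates were above 0.

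The start sites of the members were read in the RefSeq table of GRCm38.p6, from 250 bases before to 50 after, which held 68 of the members. On both strands, the NRF1 core CGCATGCG was found in 13.2% of them and in 3.96% of the 11519 tested genes with an entry. The YY1 core AAGATGGC was found in 13.2% against 4.94%, the ERR element AAGGTCA in 11.8% against 4.04% and the ETS core CCGGAAG in 25% against 18.6%. Among all 27025 genes of the table the shares were 2.07% for NRF1, 3.19% for YY1, 5.38% for ERR and 9.93% for ETS. NRF1, ERRα, GABP (an ETS factor) and YY1 are known regulators of respiratory chain genes. The E-box CANNTG, the motif of MyoD and myogenin, was as common in members (69.1%) as in tested genes (68.2%), and was found in 75% of the whole table. The 250 bases upstream of the start sites of Cox8a and Cox8b are printed because these isoforms had the lowest and the highest estimate of complex IV, with E-boxes in capitals. A match describes the letters only and is not evidence of binding.
Cox8a, chr19:7217617-7217866, minus strand: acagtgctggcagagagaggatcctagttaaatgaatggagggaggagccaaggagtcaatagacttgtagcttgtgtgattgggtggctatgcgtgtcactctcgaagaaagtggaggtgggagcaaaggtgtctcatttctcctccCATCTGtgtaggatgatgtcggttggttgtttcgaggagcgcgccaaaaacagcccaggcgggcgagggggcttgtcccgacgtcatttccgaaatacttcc
Cox8b, chr7:140900447-140900696, minus strand: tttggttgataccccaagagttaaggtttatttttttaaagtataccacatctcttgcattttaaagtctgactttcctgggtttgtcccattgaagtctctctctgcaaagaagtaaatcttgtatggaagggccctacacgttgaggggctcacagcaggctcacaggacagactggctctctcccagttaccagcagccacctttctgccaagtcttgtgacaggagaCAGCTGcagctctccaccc
The Cox8a stretch held 11 CG dinucleotides and 52.8% G or C, and the Cox8b stretch held 1 and 47.2%. Its E-box begins 19 bases before the Cox8b start site, and that of Cox8a 102 bases before.

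Genes that serve the respiratory chain were counted in the same fit. Of 49 tested assembly factors, which build the complexes but are not part of them, 6 rose and 2 fell, with a median log2 fold change of 0.11. These are 16.3% of the list, below the 28.8% of all tested genes, whose median was -0.01. Cox17, the chaperone that brings copper to complex IV, had 20.9, 19.6 and 24.9 CPM in the control and 47.3, 43.1 and 51.7 CPM with the miRNAs. Its groups were far apart, at a log2 fold change of 1.12 ± 0.11 (SE; edgeR adjusted p = 0.000323). Cox19, a second protein of copper delivery, had 19.6, 20.3 and 17.3 CPM against 24.7, 26.1 and 24.9 CPM. Its log2 fold change was 0.40 ± 0.09 (SE; edgeR adjusted p = 0.0119). The count of 8 assembly factors dropped to 4 without control replicate 1 or 2 or miR-322/-503 replicate 1 or 2, and to 5 without miR-322/-503 replicate 3.

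Of 18 tested genes for ubiquinone synthesis and for electron entry outside complexes I and II, 1 rose and 5 fell, and the median was 0.08. The share of 33.3% is near that of all tested genes and does not set the list apart. Coq9, needed for ubiquinone synthesis, had 83.8, 73.1 and 72.8 CPM against 48.1, 45.4 and 46.6 CPM. Sqor, which feeds electrons from sulfide into ubiquinone, had 42.3, 41.1 and 38.1 CPM against 25.7, 27.2 and 22.0 CPM. Both were separate between the groups, with log2 fold changes of -0.71 ± 0.07 and -0.70 ± 0.10 (SE; edgeR adjusted p = 0.000318 and 0.00157). The one that rose was Gpd2, the mitochondrial glycerol phosphate dehydrogenase, at 0.66 ± 0.07. The other falls were Coq8a (-0.58) of ubiquinone synthesis, and Etfa (-0.42) and Etfb (-0.35), the subunits of the electron transfer flavoprotein of fatty acid oxidation. These 4, like Esrra, Gabpa and Des further on, are named because of their values. In the citrate cycle 4 of 14 rose and 1 fell (35.7% of the list, median 0.12), led by Idh2 at 0.49 and Idh3a, of the NAD-dependent isocitrate dehydrogenase, at -0.32. Idh3a missed the threshold without miR-322/-503 replicate 2 or 3. The count of 5 was 2 without miR-322/-503 replicate 2 and 3 without control replicate 1 or 3 or miR-322/-503 replicate 1 or 3.

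Of 17 tested regulators of mitochondrial biogenesis, 3 rose and 1 fell, or 23.5% of the list, with a median of -0.01, and neither value is far from that of all tested genes. Ppargc1a, which encodes the coactivator PGC-1α, had 3.27, 4.37 and 3.40 CPM against 5.61, 6.32 and 6.67 CPM, with a log2 fold change of 0.75 ± 0.16 (SE; edgeR adjusted p = 0.00998). Esrra, which encodes ERRα, rose by 0.52 ± 0.09 and Gabpa, a subunit of GABP, by 0.20 ± 0.05. Ppara, a nuclear receptor for fatty acids, was seen with 19, 18 and 31 estimated counts in the control libraries but 0 in each miR-322/-503 library, so it was at least 1.86-fold lower against a floor of 12 counts per library. Among the carriers of ADP, ATP and phosphate and their outer membrane channels 1 of 6 rose (16.7%, median -0.00), Vdac1 at 0.25. Of 78 mitochondrial ribosomal proteins, which translate the mitochondrially encoded subunits, 3 rose and 4 fell (8.97% of the list, median 0.02), led by Mrps27 (0.62) and Mrpl1 (0.54). The call of Mrpl1 held in 1 of the 6 fits that left out a library, the one without miR-322/-503 replicate 2. That count of 7 was 2 without control replicate 1 or miR-322/-503 replicate 3 and 3 without miR-322/-503 replicate 1. Of 17 hypoxia-responsive genes 6 rose and 3 fell (52.9% of the list against 28.8% of all tested genes, median 0.07). The 2 largest changes were falls, unlike most calls of this list. They were in Car9, a carbonic anhydrase, at -1.52 and Adm, the adrenomedullin gene, at -0.72.

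Markers of the cells were counted beside these results, where 13.2% of all tested genes rose and 15.5% fell. Of 21 markers of differentiating muscle, 9 rose and 5 fell (66.7% called), and their summed level was 4430 to 4883 CPM in the control and 5753 to 5902 CPM with the miRNAs. Desmin (Des), 1 marker of this list, was at 1149 ± 61.2 CPM and 1800 ± 59.4 CPM (SD, n = 3 each), so its transcript was present in both lines. It does not stand for the list, in which 5 fell, and no cell type was named from these markers. Markers of undifferentiated or cycling myoblasts summed to 744 to 785 CPM against 494 to 521 CPM, with 1 of 6 higher and 4 lower (83.3% called). Fibroblast-like markers summed to 12740 to 13547 CPM against 8981 to 9128 CPM, with 1 of 6 tested genes higher and 5 lower, so that every tested marker of this list was called. The endothelial markers reached at most 0.0606 CPM in the control and 0.160 CPM with the miRNAs, and the blood markers 0 and 0.0629 CPM. The part of these shifts in the rise of Cox8b, or in any other member's value, was not tested.

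Of the 6 members that were not tested, Cox8c and a second gene ID named Atp5o were listed at 0 in every library. Ndufa11b, Cox4i2, Cox6b2 and Cox7b2, of which the last 3 are tissue-restricted isoforms, had at most 6 estimated counts in any library. Of the tested members, 27 have other genes with at least 100 coding bases at 95% identity, and in 2 (Cox7a2l and Ndufa12) these copies together exceeded the member's own TPM. When the copies' counts were added, all 6 members remained called and no other member joined them. Copies that are themselves members (Ndufb4c, Ndufs6b and Cox6c2) were not added. Exons of 28 tested members overlap a gene on the opposite strand, and in 12 the partner had over 10% of the member's TPM.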

How the data were processed

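Total RNA of 3 control and 3 miR-322/-503 libraries was sequenced in pairs. Per the labels and methods, the authors used Trim Galore for trimming, HISAT2 against GRCm38 for alignment and StringTie for quantification. They deposited estimated counts as whole numbers, and per library the coverage signal, FPKM and TPM of each gene as StringTie gave them. Versions, the annotation and strandedness are not given in the sources used here. A count stood for about 75 bases, and a read pair for about 4 counts. FPKM was not analysed here.

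Counts were tested with edgeR 4.0.16 (R 4.3.3, quasi-likelihood test, TMM, filterByExpr, Benjamini-Hochberg over 18140 genes, threshold 0.05). Intervals are 95%. Isoform shares used the exact two-sided permutation test (SciPy 1.17.1), which cannot go below 0.1 here. DESeq2 1.42.0, limma 3.58.1 on log2 TPM with pseudocounts of 1 and 0.1, other scalings and filters, a replicate block, counts per read pair, and each library left out were alternatives. Adding the counts of near-identical copies (BLAST 2.17.0, 95% identity over 100 bases) and the E-box were chosen after seeing the data. The tests were tried on simulated counts. Named were called members with a log2 fold change beyond 1, the 3 largest rises and falls called per complex, fixed isoform pairs, the Sdh genes, Cyc1, Uqcrfs1 and Cox7a2l, the 2 largest called per list, and untested members. Other members are named as range ends, site holders or chromosome neighbors and were chosen after their values were seen. Members and lists were chosen with earlier results of these data known. Gene positions are from GENCODE M21 and sequences from RefSeq, both on GRCm38. Libraries of a group differed by more than sampling noise.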

Additional observations from a re-analysis of the deposited data

How the results depend on the processing

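Cox8b, Ndufb7 and Atp5l passed the adjusted p threshold in each of the 18 alternative fits, and the members' median log2 fold change stayed between -0.00 and 0.10 over 20 alternatives, which are these fits and the subtraction of the chromosome's or the neighbors' median. Across 18 fits 4 to 15 members passed, while 16.1% to 35.1% of all genes did. DESeq2 called 7 members higher and 4 lower, with 2 in complex II, 3 in complex IV and 8 mitochondrially encoded subunits. Library totals alone gave 9 higher, with 4, 2 and 2 in complexes I, II and IV. Without a filter 2 rose, with 1 call each in complexes I and V and 4 mitochondrial ribosomal proteins. limma on TPM with either pseudocount gave 2 higher, 1 call in complex I, 0 in complex III, 3 mitochondrially encoded subunits, 2 genes of the citrate cycle, 0 carriers, 2 biogenesis regulators, 3 mitochondrial ribosomal proteins and 5 hypoxia-responsive genes. Counts per read pair gave 7 higher, with 1, 2 and 2 in complexes II, III and IV. Upper-quartile factors and a minimum of 10 counts in every library each added 1 call in complex II, and the limit on the fold left only Cox8b. The cause of these shifts was not tested.

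With the replicate number as a block, 10 members rose and 5 fell (Ndufb5 was lost, and Sdha, Sdhc and Cox7a2 were among those added), with 4, 2, 3 and 3 calls in complexes I to IV, 12 mitochondrially encoded subunits, 2 carriers and 13 mitochondrial ribosomal proteins, and Ndufa4l2 turned to -0.0600. The numbers did not pair the libraries over all tested genes, where same-numbered deviations correlated at 0.13, 0.07 and 0.05, although over the 80 members with at least 10 TPM they did so at 0.70, 0.46 and 0.47, and each library correlated best with its own number there. Over the 6924 genes of like CPM the values were -0.48, -0.66 and 0.31.

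When each library was left out in turn, 2 to 4 members rose and 2 to 5 fell. Calls ranged from 1 to 3 in complex I, 0 to 1 in complex II, 0 to 1 in complex III, 1 to 4 in complex IV and 1 to 2 in complex V. They ranged from 4 to 6 assembly factors, 1 to 6 mitochondrially encoded subunits, 2 to 4 genes of the citrate cycle and 2 to 6 mitochondrial ribosomal proteins. Estimates that changed sign were those near 0 and that of Ndufa4l2. Leaving out libraries moved Ndufa4 between -0.16 and 0.0680, Ndufa4l2 between -0.34 and 0.65, Cyc1 between -0.11 and 0.0792, Cox4i1 between -0.22 and 0.28, Atp5g1 between -0.000902 and 0.13, Atp5g2 between -0.0882 and 0.11 and Atp5g3 between -0.0012 and 0.24. Library totals gave 0.0062 for Ndufa4, 0.0426 for Cyc1 and 0.0445 for Cox4i1. Cyc1 was 0.0045 in DESeq2, 0.0069 with RLE factors, 0.0138 with upper-quartile factors, 0.0416 and 0.0419 in the limma fits and 0.0054 per read pair. Cox4i1 was 0.0066, 0.0083, 0.0160, 0.0015 and 0.0015, and 0.0087 in the same order, 0.00012 without the mitochondrially encoded genes and 0.0150 with the replicate block. Ndufa4l2 was -0.15 with limma at a pseudocount of 0.1, and Atp5g1 was -0.0213 with copies added. From CPM the difference in the Atp5g1 share was -0.13 percentage points. Over 38 named genes, 588 values kept direction and side of the threshold, 41 lost the call, 15 gained it and 32 changed sign. Cox8b, Cox7a1, Ndufa4l2, Ndufs6b and Cox6c2 had few read pairs, which limits their precision.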
